A study of Mus musculus with 12 samples.

Results

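The clustered protocadherin genes were taken as the protein-coding genes of mouse chromosome 18 whose GENCODE symbols begin with Pcdha, Pcdhb, Pcdhga, Pcdhgb or Pcdhgc. The rule found 57 of the 21938 protein-coding genes on the assembled chromosomes of the mm10 (GRCm38) genome. They lie on the plus strand in 3 clusters, with 14 genes in the alpha cluster (chr18:36929184-37188661), 22 in the beta cluster (chr18:37263938-37525479) and 21 in the gamma cluster (chr18:37660793-37842873). These spans run from 1 kb before the first transcription start site (TSS) to 1 kb past the last gene end. GENCODE gives the symbol Pcdha11 to 2 genes, and the first of them is called Pcdha10 here, after RefSeq. Of the 57 genes, 5 are C-type, namely Pcdhac1 and Pcdhac2 at the end of the alpha cluster and Pcdhgc3, Pcdhgc4 and Pcdhgc5 at the end of the gamma cluster. The other 52 are called variable members here.

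Clustered protocadherins are cell-surface adhesion proteins through which the neurites of a neuron recognise each other. In the alpha and gamma clusters each variable first exon has its own promoter and is spliced to constant exons shared by the whole cluster, whereas the beta genes are each encoded by a large exon with no shared constant part. A neuron is known to express a small, largely random set of the variable members, with promoter choice tied to DNA methylation, the insulator protein CTCF and cohesin, whereas most C-type members are expressed in many neurons at once. Distal enhancers are known downstream of the alpha constant exons and downstream of the gamma cluster. In a mixed cell population a mark at a variable promoter is therefore an average over cells that use different promoters.

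Histone marks were profiled by native ChIP-seq in cells sorted from the cerebral cortex of *Gad67-GFP* heterozygote pups at postnatal day 2, from a mixed stock with CD-1 outcrossing. GFP+ cells were the cortical interneurons (CINs) and GFP- cells the non-CINs, a mixture of the remaining cortical cells and no pure type. H3K27ac is a mark of active promoters and enhancers, and H3K27me3 is the mark left by Polycomb repressive complexes. Each mark had 2 replicate experiments per population, each from pooled tissue of several litters, which gave 8 peak lists called against input. The lists hold called peaks and not read depth, so a missing peak says only that no peak was called.

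The H3K27ac lists held 46040 to 62505 peaks over 40.8 to 56.3 Mb, and the H3K27me3 lists held 36662 to 45081 peaks over 34.5 to 49.8 Mb. The sort was visible in H3K27ac at marker promoters. The CIN markers Gad2, Slc32a1, Dlx1, Dlx2, Dlx5, Dlx6 and Sp9 had an H3K27ac peak in both CIN lists, and among them a peak was called in a non-CIN list at Gad2 alone, over 249 bp in replicate 2 compared with 2001 bp in each CIN list. The promoter windows of Gad1 and Lhx6, also CIN markers, held no H3K27ac peak in any list. H3K27me3 did not show the sort in the same way. Gad2, Slc32a1, Dlx1, Dlx2, Dlx5, Dlx6, Lhx6 and Sp9 had an H3K27me3 peak in all 4 lists. At none of them was its covered length higher in both lists of either population than in both lists of the other. The projection neuron markers separated less well by H3K27ac, since 1 of 7 was called in either population (Neurod6 in CINs and Emx1 in non-CINs). Of 5 glial markers, 4 had H3K27ac in both lists of each population, and none of 3 endothelial markers did. Of 3 microglial markers 1, P2ry12, had H3K27ac in all 4 lists, over 1496 and 1590 bp for CINs compared with 1375 and 1224 bp for non-CINs, so it was longer in both CIN lists, and Csf1r and Cx3cr1 had none. The part of other cell types in the results was not tested. The H3K27me3 replicate experiments stood apart from each other over the gamma cluster in both populations, so every H3K27me3 value is given per list. Covered lengths and counts of peaks were compared as they stand, and the exact permutation test of 2 lists against 2 cannot give a two-sided p below 0.333.

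**Figure D1:**
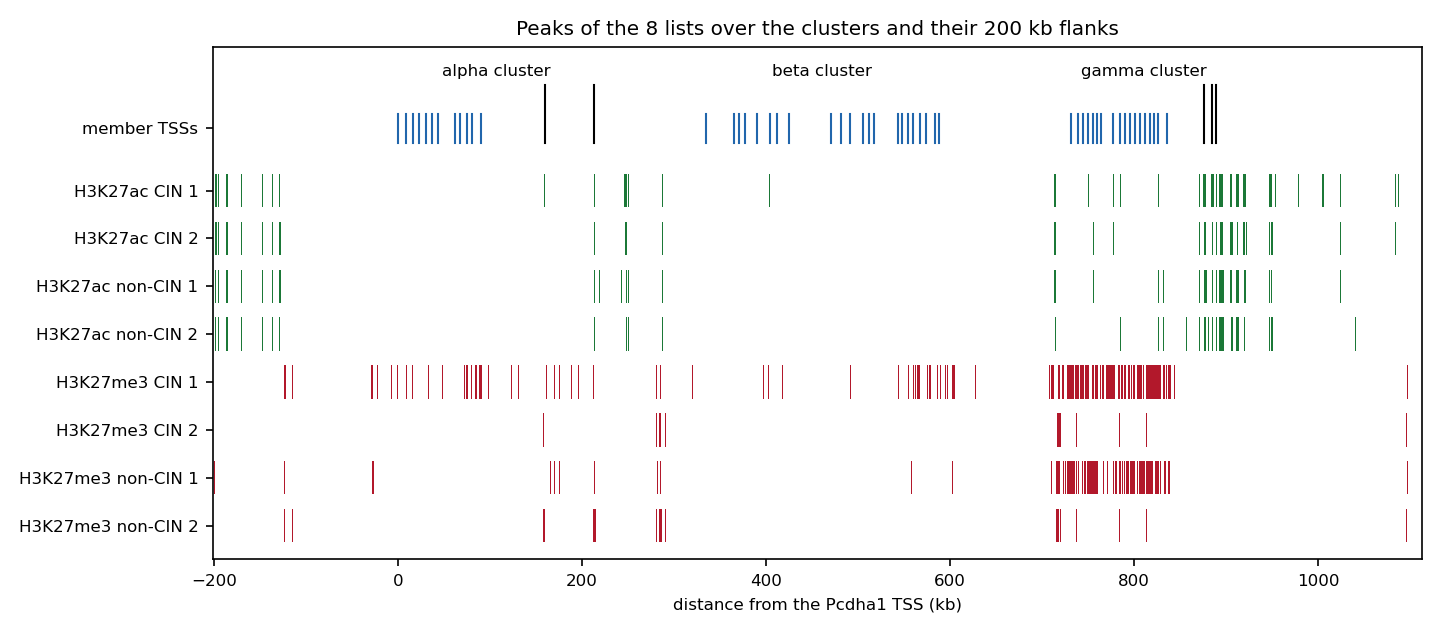
Peaks of the 8 lists (rows, H3K27ac in green and H3K27me3 in red) against the distance from the Pcdha1 TSS in kb, with the TSSs of the 57 genes above (blue, variable; taller and black, C-type). H3K27ac gathered at the 3' end of the alpha and gamma clusters and in the flanks, while H3K27me3 peaks were spread over the variable part of the gamma cluster in both replicate 1 lists and not in the replicate 2 lists.

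H3K27ac was scarce at the variable promoters and present at most C-type promoters. A promoter was the window from 1 kb upstream to 1 kb downstream of the TSS, and a call was a peak over it in both replicates of a population. In CINs 6 of the 57 members had H3K27ac in both replicates, namely Pcdhac2, Pcdhga6, Pcdhga11, Pcdhgc3, Pcdhgc4 and Pcdhgc5, against 48.3% of all protein-coding promoters. In non-CINs the same members without Pcdhga6, 5 in all, had the call, against 47.5% of all promoters. In no list did any of the 12 variable alpha promoters hold an H3K27ac peak, and 44 of the 57 members had none in any of the 4 H3K27ac lists. The share of all promoters with none in any of these lists is not given here. List by list, members with a peak numbered 10 and 9 in the CIN lists against 7 and 6 in the non-CIN lists, while 53.2%, 48.9%, 52.3% and 48% of all promoters had a peak in the same lists. Without replicate 2 the CIN count rose from 6 to 10, and among peaks with a −log10 q of at least 4 it fell to 3. The share of all promoters at that cutoff is not given here, so the fall is not read as particular to the family.

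The C-type gamma genes carried the longest H3K27ac coverage of the family. Pcdhgc3 has its TSS at position 37806364 of chromosome 18, and H3K27ac peaks covered 1775 and 1605 bp of its promoter window in the CIN lists (replicates 1 and 2, in that order throughout) against 1439 and 1522 bp in the non-CIN lists. Both CIN values lay above both non-CIN values. At Pcdhgc4 (TSS 37815079), a gene known to be needed for the survival of cortical interneurons, the covered lengths were 2001 and 1706 bp for CINs compared with 1719 and 1451 bp for non-CINs. The populations overlapped, and the CIN list was the longer within each replicate number. At Pcdhgc5 (TSS 37819513), the last gene of the cluster, they were 1091 and 427 bp for CINs compared with 1143 and 1252 bp for non-CINs. Here both non-CIN lists lay above both CIN lists, by 52 bp or more, and the CIN replicates differed by 664 bp. None of the 3 genes had an H3K27me3 peak at its promoter in any list.

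The strength of these peaks was placed by fold percentile, the rank of a peak's fold enrichment among all peaks of its list, with 100 the highest. Pcdhgc3 reached percentiles of 85.1 and 76.8 in CINs against 72.8 and 79.4 in non-CINs. Pcdhgc4 reached 86.3 and 80.2 in CINs against 63.4 and 75.1 in non-CINs, with both CIN lists above both non-CIN lists. Pcdhgc5 was weaker, at 43 and 43.3 in CINs against 50.8 and 58.2 in non-CINs. All 3 therefore had peaks of ordinary to upper strength in every list, and Pcdhgc5 was the lowest of the 3 in each of the 4 lists.

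The C-type alpha genes differed from each other. Pcdhac2 (TSS 37143503) had H3K27ac in all 4 lists, over 877 and 874 bp for CINs compared with 472 and 657 bp for non-CINs, so the CIN lists did not overlap the non-CIN lists. Its fold percentiles were 67.9 and 39.7 in CINs against 50.1 and 55.8 in non-CINs, and these did overlap. Pcdhac1 (TSS 37090013) had an H3K27ac peak in CIN replicate 1 alone, of 1088 bp and percentile 45.2.

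At the variable promoters H3K27ac took the form of short peaks. Across the 4 lists they merged into 8 regions of 206 to 427 bp, each at a different gene, with centres 59 to 313 bp downstream of the TSS and so inside the first exon. Of these 8 regions 3 were called in 1 list, 4 in 2 lists and 1 in all 4 lists. The last was at Pcdhga11, with 200 and 384 bp for CINs compared with 244 and 361 bp for non-CINs, at percentiles of 5.83 and 39.2 in CINs against 41.2 and 19 in non-CINs. Pcdhga6 was the only variable member called in both lists of one population and neither list of the other, with 369 and 239 bp in CINs and no peak in non-CINs. In the beta cluster H3K27ac peaks lay at Pcdhb6 in CIN replicate 1, at Pcdhb17 in CIN replicate 2 and at Pcdhb19 in CIN replicate 2 and non-CIN replicate 1, each of 200 to 246 bp. Their percentiles ran from 37.5 at Pcdhb17 to 69 at Pcdhb19 in non-CIN replicate 1. These 3 beta genes were named after their values were seen.

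Counted over the family, the H3K27ac covered length of the CIN lists lay above that of the non-CIN lists at 3 of 57 promoters (Pcdhac2, Pcdhga6 and Pcdhgc3), against 10.2% of all protein-coding promoters. It lay below at 1 promoter (Pcdhgc5), against 6.64% of all promoters. Comparing lists of the same replicate number added Pcdhgc4 to the members higher in CINs, 4 in all, against 16.7% of all promoters. The share of members was under the share over all genes in each of these counts.

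Most H3K27ac of the clusters lay outside promoters, at their 3' ends and between them. Merging the 4 lists gave 42 H3K27ac regions over the clusters and their 200 kb flanks, of which 26 were in all 4 lists. The covered length was higher in both CIN lists than in both non-CIN lists at 9 of these 26 (34.6%), against 17.7% of the regions found in all 4 lists genome-wide. These 9 are not all cluster regions outside promoters. Those at the promoters of Ndufa2 and Ik, of Hars and Hars2 and of Diaph1, and one within Diaph1 introns, lay in the flanks. Those at Pcdhac2 and Pcdhgc3 overlapped promoters already counted. The reverse held for 3 of 26 (11.5%), against 26.4% genome-wide.

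The interval from alpha to beta held 1 H3K27ac region, which had the highest fold percentile of the clusters and intervals in both CIN lists and in non-CIN replicate 2, while Taf7 and parts of the gamma cluster were higher in non-CIN replicate 1. This intergenic region, chr18:37216750-37218368, starts about 29 kb past the last alpha exon, on the side of the cluster where an alpha enhancer is known, but it was not matched to that element here. Peaks covered 1597 and 1602 bp of it in CINs compared with 1324 and 1151 bp in non-CINs. Its fold percentiles were 99.9 and 99.9 in CINs against 93.2 and 98.5 in non-CINs, so both measures were higher in both CIN lists.

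Within the alpha cluster the longest H3K27ac region, chr18:37176037-37180813, lay in the intron before the last constant exon. It was covered over 4006 and 2731 bp for CINs compared with 2507 and 2427 bp for non-CINs, at percentiles of 96.2 and 94.7 in CINs against 85.3 and 93.9 in non-CINs. Again both CIN lists lay above both non-CIN lists. No H3K27me3 peak fell between the end of the Pcdhac2 first exon and the end of the shared last exon, a stretch of 41127 bp, in any list. The stretch from the start of the cluster to the Pcdhac1 promoter, 159829 bp, held no H3K27ac peak in any list.

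The gamma cluster had the same layout with more H3K27ac. From the Pcdhgc3 promoter to the 3' end of the cluster (37510 bp), H3K27ac peaks covered 41.6% and 33.3% in CINs against 38.9% and 42.4% in non-CINs. In the 144571 bp before it they covered 1.70% and 1.12% in CINs against 0.975% and 1.43% in non-CINs. The longest region, chr18:37822552-37827872, spanned the first constant exon and was covered over 4436 and 3935 bp for CINs compared with 4724 and 5321 bp for non-CINs, with both non-CIN lists above both CIN lists. A shorter region 5.4 kb upstream of the Pcdhgc3 TSS, chr18:37800376-37801482, was covered over 1076 and 763 bp for CINs compared with 465 and 470 bp for non-CINs. Its fold percentiles also lay apart, at 93.2 and 96.4 in CINs against 71 and 29.2 in non-CINs. These regions were named after their values were seen.

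Past the gamma cluster an H3K27ac region within the introns of Diaph1, chr18:37876803-37881161, was among the strongest of its lists. Its percentiles were 100, 99.2, 99.7 and 98.2 in CIN replicates 1 and 2 and non-CIN replicates 1 and 2, with 3903 and 3250 bp covered in CINs compared with 3017 and 2882 bp in non-CINs. Diaph1 encodes a formin that nucleates actin filaments, and its own promoter also had H3K27ac in all 4 lists. Downstream enhancers of the beta cluster are known on this side, and the region was not matched to them here.

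The beta cluster had few H3K27ac peaks. Over its 261542 bp, peaks covered 246 and 406 bp for CINs compared with 200 and 0 bp for non-CINs.

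**Figure D2:**
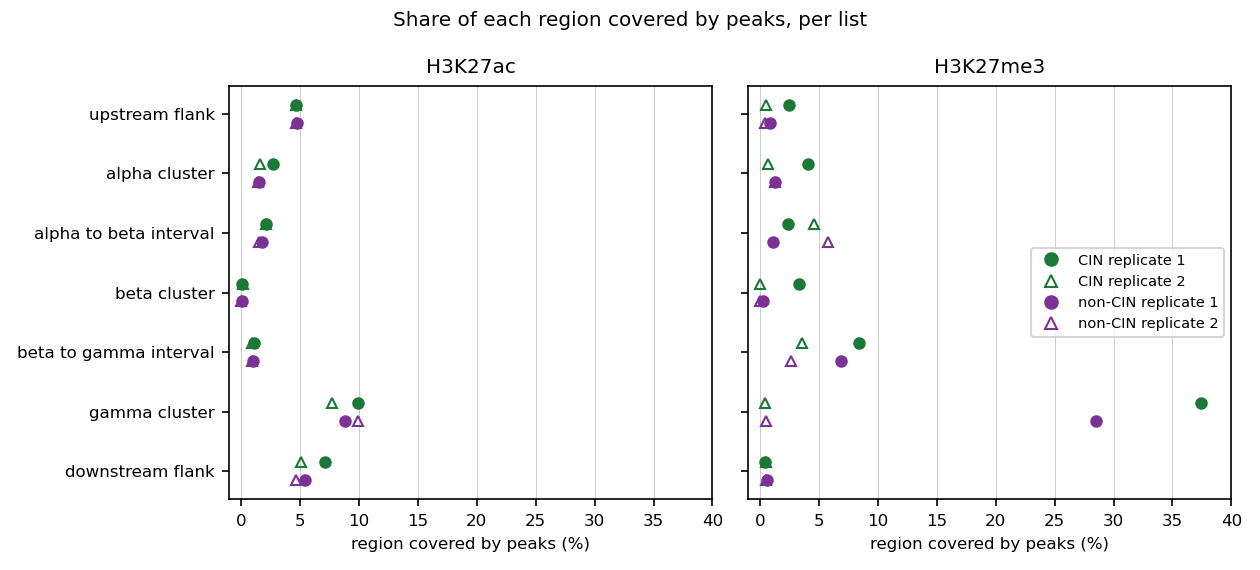
Share of each cluster, interval and 200 kb flank covered by H3K27ac peaks (left) and H3K27me3 peaks (right), in percent, per list (green, CIN; purple, non-CIN; filled circles, replicate 1; open triangles, replicate 2). H3K27ac was highest over the gamma cluster, at 7.74% to 9.93% in the 4 lists, and H3K27me3 over the gamma cluster was 37.5% and 28.6% in the replicate 1 lists and 0.426% and 0.473% in the replicate 2 lists.

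H3K27me3 over the family depended on the replicate experiment. In CIN replicate 1, 34 of 57 members had an H3K27me3 peak at the promoter, and in CIN replicate 2, 3 did. In non-CINs the counts were 19 in replicate 1 and 4 in replicate 2. Over all promoters the share with a peak was 13.8% and 16.8% in the CIN lists against 14.4% and 16.6% in the non-CIN lists, so genome-wide the replicate 1 lists held slightly fewer. As a result 2 members were called in both CIN replicates (Pcdhac2 and Pcdhga7), against 12.8% of all promoters. In both non-CIN replicates 3 were called (Pcdhac2, Pcdhga7 and Pcdhgb6), also against 12.8% of all promoters. Among peaks with a −log10 q of at least 4 both counts fell to 0, and with windows of 500 bp either side of the TSS the CIN count fell to 0. The shares of all promoters under these settings are not given here.

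The variable gamma genes had the longest coverage in the replicate 1 lists. In CIN replicate 1 all 18 had H3K27me3 at the promoter, with covered lengths of 845 to 2001 bp and a median of 1404 bp. In non-CIN replicate 1, 17 had it, with a median over the 18 of 1391 bp and a highest value of 1781 bp. Pcdhga5 was the exception, with 975 bp in CIN replicate 1 and no peak in the other 3 lists. In the replicate 2 lists 1 variable gamma gene had a peak in CINs and 2 in non-CINs.

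Pcdhga1, the first gene of the cluster (TSS 37661793), had 2001 bp covered in CIN replicate 1 and 1552 bp in non-CIN replicate 1, and no peak in either replicate 2 list. Pcdhgb1 had 2001 and 1444 bp in the replicate 1 lists of CINs and non-CINs, Pcdhga4 had 1951 and 1446 bp, and Pcdhga9 had 1756 and 1546 bp, each with no peak in replicate 2. Pcdhga7 was the only variable member with a peak in all 4 lists, over 1688 bp in CIN replicate 1, 1756 bp in non-CIN replicate 1, 104 bp in CIN replicate 2 and 213 bp in non-CIN replicate 2. The replicate 1 and replicate 2 values did not overlap at any of these genes, and the population made a smaller difference than the replicate number.

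The peaks of the replicate 1 lists ranged widely in strength. The strongest peak at each variable gamma promoter had a median fold percentile of 80.3 in CIN replicate 1, with a range of 55.9 to 98.2, and of 71.4 in non-CIN replicate 1, with a range of 10.7 to 93.9. Over the whole cluster 68 and 69 peaks were called in the replicate 1 lists of CINs and non-CINs and 3 in each replicate 2 list. Of these, 36 and 29 had a −log10 q of at least 4 in replicate 1, and none did in replicate 2.

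In all, 16 of the 57 members had H3K27me3 in both replicate 1 lists and neither replicate 2 list, namely 15 variable gamma genes and Pcdhb22, the last beta gene. Over all promoters that pattern was found at 71 genes or 0.324%, so 55 lay outside the family. The reverse pattern, both replicate 2 lists and neither replicate 1 list, was found at 1 member, Pcdhac1, against 1.54% of all promoters.

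H3K27me3 peaks of the replicate 1 lists were spread over the variable part of the gamma cluster and stopped before its C-type end. Up to the Pcdhgc3 promoter it covered 47.2% of the sequence in CIN replicate 1 and 36% in non-CIN replicate 1, and from there to the 3' end of the cluster it covered nothing in any list. The last H3K27me3 peak ended 32.7 kb before the Pcdhgc3 TSS in CIN replicate 1 and 37.3 kb before it in non-CIN replicate 1. In the variable part the 1 kb upstream of each TSS was covered over 77.7% and 53.7% of its length in the replicate 1 lists of CINs and non-CINs, the first exons over 57% and 52% and the rest over 34.3% and 22.2%. Coverage was thus denser over the promoters and first exons than between them in both lists. At 2000 bp past the TSS 22.2% of these genes were covered in CIN replicate 1 and 11.1% in non-CIN replicate 1, and coverage rose again further downstream.

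**Figure D3:**
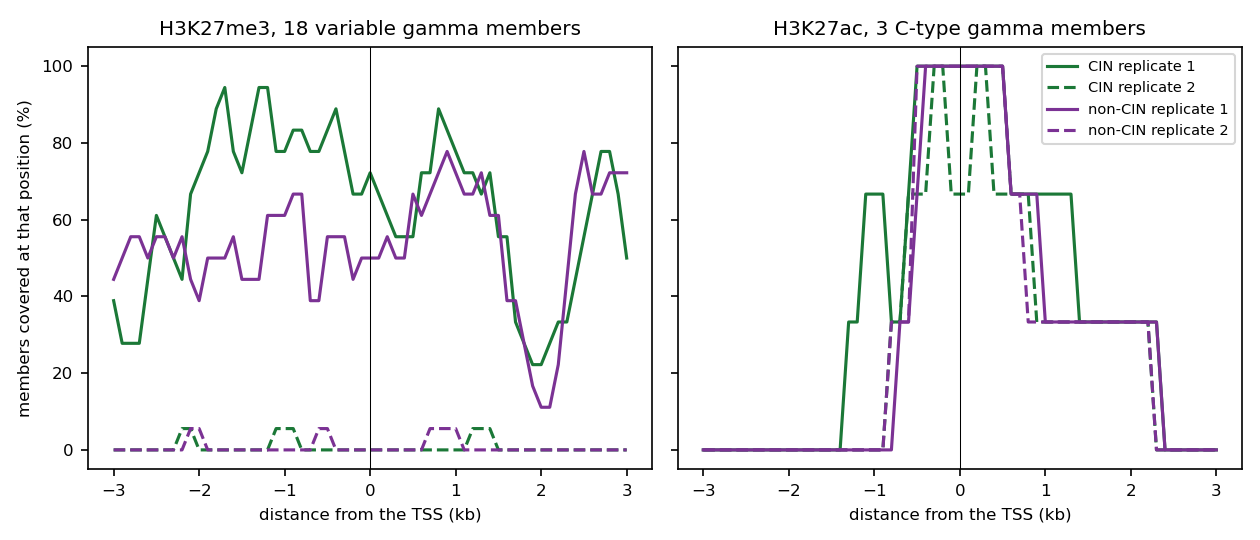
Share of members covered by a peak at each position from 3 kb before to 3 kb after the TSS, for H3K27me3 at the 18 variable gamma members (left) and H3K27ac at the 3 C-type gamma members (right), per list (green, CIN; purple, non-CIN; solid, replicate 1; dashed, replicate 2). The replicate 1 lists run far above the replicate 2 lists on the left, where no more than 5.56% of members were covered at any plotted position in replicate 2. On the right all 3 members were covered at the TSS in 3 of the 4 lists and 66.7% in CIN replicate 2.

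H3K27me3 at variable alpha and beta promoters was called in CIN replicate 1, with Pcdhb22 in non-CIN replicate 1 as the exception. In that list 7 of 12 variable alpha genes had a peak, Pcdha1 among them with 384 bp, and the longest coverage was 844 bp. None of the 12 had one in the other 3 lists. In the beta cluster 8 of 22 genes had a peak in CIN replicate 1, from 200 to 980 bp, and 1, Pcdhb22, in non-CIN replicate 1, where 33 bp of its window were covered. Pcdhb1, the first beta gene, had no peak of either mark in any list. Over the family 15 members had an H3K27me3 peak in CIN replicate 1 alone, against 0.52% of all promoters. There was no peak of either mark in any list at 18 members, 5 in alpha and 13 in beta. In single lists 48% to 53.2% of all promoters had H3K27ac and 13.8% to 16.8% had H3K27me3. The share of all promoters with no peak in any list is not given, so this count is not read as a trait of the family.

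With all 4 lists compared, 1 member separated the populations by H3K27me3. Covered length was higher in both CIN lists than in both non-CIN lists at 0 of 57 members, against 2.56% of all promoters, and the reverse held at 1 member, Pcdhac2, against 1.64%. With a −log10 q of at least 4 this last count was 0. Within replicate 1 alone the CIN value was the higher at 28 members and the non-CIN value at 6, and within replicate 2 alone at 0 and 4. Over all promoters the shares were 6.3% and 7.5% within replicate 1 and 9.43% and 6.59% within replicate 2. Comparing lists of the same replicate number, so that the non-CIN value had to be the higher in each, gave 3 members in place of 1, namely Pcdhac2, Pcdhga7 and Pcdhgb6, against 2.99% of all promoters.

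Pcdhac2 was the member that held both marks in both replicates of each population. This was 1 of 57 members in CINs, against 2.76% of all promoters, and 1 of 57 in non-CINs, against 2.31%. H3K27me3 covered 337 and 245 bp of its window in CINs compared with 448 and 502 bp in non-CINs, with both non-CIN lists above both CIN lists, the opposite order to its H3K27ac. The marks lay side by side. The H3K27me3 peaks were upstream of the H3K27ac peaks, and they shared no base in 3 of the 4 pairs of lists from the same population and replicate number and 222 bp in non-CIN replicate 1. The H3K27me3 peaks of CINs were weak, at percentiles of 4.95 and 13.7 against 28.4 and 66.3 in non-CINs, and with a −log10 q of at least 4 no member kept both marks in either population. Whether the marks sat on the same cells cannot be told apart in lists from whole populations. Pcdhac1 had H3K27me3 in the replicate 2 lists, over 237 bp for CINs compared with 365 bp in non-CINs.

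Summed over whole clusters, no difference between the populations passed a test at this n. In the gamma cluster H3K27ac covered 16092.5 bp ± 2818 (SD, n = 2) in CINs and 16995.5 bp ± 1394 (SD, n = 2) in non-CINs (exact permutation test, two-sided, p = 1). In the alpha cluster it covered 5560 bp ± 2150 (SD, n = 2) in CINs and 3743 bp ± 171 (SD, n = 2) in non-CINs, with both CIN lists above both non-CIN lists (exact permutation test, two-sided, p = 0.333, the smallest it can give). In the beta cluster both populations were near 0, at 326 bp ± 113 (SD, n = 2) in CINs and 100 bp ± 141 (SD, n = 2) in non-CINs (exact permutation p = 0.333).

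For H3K27me3 in the gamma cluster the SD between replicates was larger than the mean in both populations. The gamma cluster was covered over 68199 and 776 bp in CIN replicates 1 and 2 and over 51987 and 861 bp in non-CIN replicates 1 and 2 (exact permutation test between populations, two-sided, p = 1). Within replicate 1 the CIN list was higher by 16212 bp, and within replicate 2 it was lower by 85 bp. Across populations the replicate 1 lists averaged 60093 bp and the replicate 2 lists 818.5 bp, a ratio of 73.4 (exact permutation p = 0.333, the smallest it can give). H3K27ac over the same cluster averaged 17047.5 bp in replicate 1 and 16040.5 bp in replicate 2, a ratio of 1.06. The alpha cluster held 10648 and 1810 bp of H3K27me3 in CINs compared with 3357 and 3338 bp in non-CINs, and the beta cluster 8561 and 0 bp for CINs compared with 723 and 0 bp for non-CINs (exact permutation p = 1 for both clusters).

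The gap between replicate experiments over the gamma cluster was set beside the rest of the genome in tiles of 200 kb. Over the cluster the lower replicate 1 list exceeded the higher replicate 2 list by 28.1 percentage points of covered length. Of 13619 tiles 1626 (11.9%) were higher in both replicate 1 lists, and 0 (0%) by as much as the gamma cluster. The tile nearest to it, at 27.4 points, was the one that holds most of the gamma cluster, chr18:37600001-37800000, and the next, at 17.3 points, was chr2:77800001-78000000, which holds the TSSs of Zfp385b and Cwc22. In the other direction 2946 tiles (21.6%) were higher in both replicate 2 lists, and 4 (0.0294%) by at least the gamma gap, all on the X chromosome. Tiles and cluster differ in length, the cluster being 182081 bp long.

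**Figure D4:**
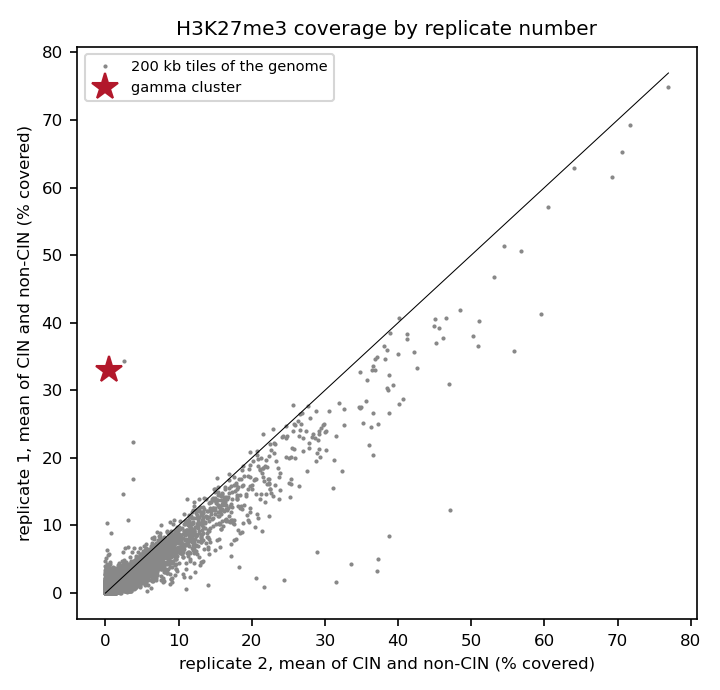
Percent of each 200 kb genome tile covered by H3K27me3 peaks (grey points), as the mean of the CIN and non-CIN lists of replicate 2 (x axis) and of replicate 1 (y axis), with the gamma cluster as a red star and equality as a line. Most tiles lie near or under the line, and the gamma cluster lies well above it, at 28.1 points or more between the lists.

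Most genes around the clusters had H3K27ac at the promoter, and 1 had H3K27me3. Upstream of alpha, H3K27ac was present in all 4 lists at Tmco6, Ndufa2, Ik, Wdr55, Hars, Hars2 and Zmat2, which include the histidyl-tRNA synthetases Hars and Hars2, and absent at Dnd1, a germ cell gene. Between beta and gamma it was present in all 4 lists at Taf7, a subunit of the general transcription factor TFIID, with percentiles of 96.6 and 97.9 in CINs against 98.1 and 98.2 in non-CINs, and absent at Slc25a2. Downstream it was present in all 4 lists at Diaph1, Hdac3, Rell2 and Fchsd1 and absent at Arap3. Of these genes Slc25a2, a mitochondrial carrier 23 kb from the first gamma gene, alone had H3K27me3 at its promoter, over 534 bp in CIN replicate 1 and 58 bp in non-CIN replicate 1 and not in replicate 2. GENCODE also lists Gm42416, Gm37013 and Gm37388 as protein-coding genes that start within the alpha cluster, and no peak of either mark lay at their promoters.

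H3K27ac over the upstream flank was of like length in the 4 lists, and over the downstream flank it was longest in CIN replicate 1. The upstream flank was covered over 9331 and 9257 bp for CINs compared with 9509 and 9349 bp for non-CINs, and the downstream flank over 14207 and 10069 bp for CINs compared with 10911 and 9360 bp for non-CINs. H3K27me3 covered 2.44% of the upstream flank in CIN replicate 1 and under 1% in the other 3 lists, and 0.414% to 0.617% of the downstream flank in the 4 lists. The interval from alpha to beta went against the gamma cluster, with more H3K27me3 in the replicate 2 lists (3468 bp for CINs compared with 4331 bp in non-CINs) than in the replicate 1 lists (1783 and 840 bp).

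The wider family was counted in the same way. Of 12 non-clustered protocadherins, 8 had H3K27ac in both CIN lists and 9 in both non-CIN lists, and 4 (Pcdh1, Pcdh7, Pcdh8 and Pcdh15) had H3K27me3 in both replicates of each population. Over all promoters these calls stood at 48.3% and 47.5% for H3K27ac and at 12.8% for H3K27me3 in either population. Their summed H3K27me3 coverage was 2689 and 2938 bp for CINs compared with 2251 and 2534 bp for non-CINs, so the replicate 1 and replicate 2 lists overlapped there. Of 15 genes known for control of the clusters, such as Ctcf, the cohesin genes and Smchd1, 9 had H3K27ac in both CIN lists and 10 in both non-CIN lists, the difference being Rest, beside the same 48.3% and 47.5% of all promoters. None of the 15 had H3K27me3 in both replicates of either population, against 12.8% of all promoters.

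The promoter windows of the family were also described by sequence features that the rule did not use, which differed between its subfamilies. Their GC content had a median of 42.9%, against 51.2% over all protein-coding promoters, and the 5 C-type windows, from 50.2% to 54.8%, lay above every variable window, the highest of which had 47.2%. The ratio of observed to expected CpG was highest in median at the variable alpha windows, at 0.641, and lowest at the beta windows, at 0.334, with 0.507 at the variable gamma windows and 0.474 over all promoters. The CTCF consensus core, searched on both strands with no mismatch, was present in 6 of the 12 variable alpha windows and in none of the other 45, which is 10.5% of the family against 1.72% of all promoters. A match is a description of letters and not a bound site. Because no mismatch was allowed, a window without a match may still hold a CTCF site.

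Near-identical copies could keep reads from being placed, since the submitters kept only well-placed reads. In the family a median of 98.8% of the 50-base stretches of a promoter window occur once in the genome, with a lowest value of 82.1% at Pcdha7. Over all protein-coding promoters the median was 100%, and 13.2% of them were under 90% unique against 9 of 57 members (15.8%). The variable gamma windows, with a median of 99.4%, and the C-type windows, at 100%, were nearly all unique, and so was 96.4% of the gamma cluster. The alpha cluster was 83.3% unique and the beta cluster 87.7%, and the part of this in their scarce peaks was not tested.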

How the data were processed

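Native ChIP-seq for H3K27ac and H3K27me3 was done in CINs and non-CINs, 2 replicates each. Reads were aligned to mm10 by the authors (BWA 0.7.15), who kept those with a mapping quality of 30 or more, and called broad peaks per sample against matched input with MACS2 (2.2.7 in the submitters' processing notes). The 4 input samples were not used here. Each deposited list gives a score, a fold ratio over input, and −log10 p-values and q-values. The deposited score, which follows the q-value, and the p-value were not used.

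Peaks were intersected with GENCODE vM21 basic protein-coding genes by Python 3.11.15 and NumPy 2.4.6, with interval code tested on simulated data and against bedtools. A promoter ran 1 kb either side of the gene start. Fold was used only as a percentile within its list. No read depth is given in the lists, so differences rest on covered length, compared between populations by whether the lists overlap and by exact permutation tests. Samples were pools of litters per the labels, which do not say whether replicates came from separate pools or whether a number links CINs and non-CINs, so p-values measure the spread between these samples. Named genes were the C-type members, the first and last of each cluster, per mark the 5 with the longest mean coverage, members whose populations do not overlap, those that alone have or lack their cluster's call, and neighbours within 200 kb. Members, lists and tests were chosen with earlier results of these data known. The value of 1 CIN marker is not reported here.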

Additional observations from a re-analysis of the deposited data

How the results depend on the processing

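The lists hold calls and no counts, so what a deeper library would show is unknown, and n is 2 per group. The alternatives changed the window, the −log10 q, the overlap, the TSS, the merging of peaks, the scale and the replicates, and where a value changed the cause was not tested. With a −log10 q of at least 4, members called for H3K27ac in CINs fell from 6 to 3, those called for H3K27me3 from 2 in CINs and 3 in non-CINs to 0, those with both marks from 1 to 0 in each population and those with more H3K27me3 in non-CINs from 1 to 0. With the window cut to 100 bp downstream, H3K27ac in non-CINs gave 3 members for 5, and higher H3K27ac in non-CINs and both marks in non-CINs gave 0 for 1. With 500 bp either side, H3K27me3 and both marks in CINs gave 0, and with at least 200 bp covered H3K27me3 in CINs gave 1. The shares of all promoters under these cutoffs and windows are not given, so the changes are not read as particular to the family. Higher H3K27ac in CINs in the alpha and beta clusters kept its sign with either replicate left out, but the difference ran from 418 to 3216 bp in alpha and from 46 to 406 bp in beta.

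Leaving out replicate 1, then replicate 2, moved the counts as follows, with the share of all promoters in brackets. H3K27ac in CINs gave 9 and 10 members (48.9%, 53.2%). Higher H3K27ac in CINs gave 8 each time, and the share also rose, to 25.5% and 30.9%. Higher H3K27ac in non-CINs gave 2 and 4 (23.2%, 22%). H3K27me3 in CINs gave 3 and 34 (16.8%, 13.8%), while non-CINs gave 4 and 19 (16.6%, 14.4%). Higher H3K27me3 in CINs gave 0 and 28 (9.43%, 6.3%), and the reverse gave 4 and 6 (6.59%, 7.5%). Both marks in CINs gave 1 and 5 members, while the share rose from 2.76% to 4.7% and 5.05%. Both marks in non-CINs gave 2 and 3, while the share rose from 2.31% to 3.99% and 4.97%. Leaving out a replicate also moved the CIN minus non-CIN length. For H3K27me3 it ran from −1528 to 7291 bp in alpha and from 0 to 7838 bp in beta. It ran from −85 to 16212 bp in gamma and from −863 to 943 bp between alpha and beta. For H3K27ac it moved from −3881 to 2075 bp in gamma and from −22 to 66 bp between beta and gamma. With a −log10 q of at least 4 the difference of H3K27me3 turned to −236.5 bp in alpha, −212 bp between alpha and beta, −469 bp between beta and gamma and 148.5 bp in the downstream flank. Merging peaks turned it to −173.5 bp between alpha and beta, and turned H3K27ac in the upstream flank to 114.5 bp.

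With the replicate block, comparing lists of the same number, 3 members had more H3K27me3 in non-CINs in place of 1, 4 had more H3K27ac in CINs in place of 3 (16.7% of all promoters in place of 10.2%), and the mean differences over regions were the same by construction. The smallest p that sign flips of 2 pairs can give is 0.5. Over all promoters, lists of the same number deviated together, with a correlation of 0.467 for H3K27ac and 0.502 for H3K27me3. Over the 57 members it was −0.21 for H3K27ac and 0.887 for H3K27me3. The paper called differential peaks between CINs and non-CINs within each replicate. Whether lists of the same number came from the same pool of tissue was not stated.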

Other observations

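After the tile that holds the gamma cluster, other tiles also had more H3K27me3 coverage in both replicate 1 lists than in both replicate 2 lists. The tile chr2:77800001-78000000 (Zfp385b and Cwc22) was covered over 23.1% and 21.6% in the replicate 1 lists of CINs and non-CINs and over 4.24% and 3.23% in replicate 2. The tile chr10:82000001-82200000, with the zinc finger gene Zfp873, was 9.68 percentage points higher in replicate 1. In the opposite direction the largest gap, 33.4 percentage points in favour of replicate 2, was on the X chromosome at a tile with the TSSs of Eif2s3x, Klhl15, Fam90a1b and Apoo. These genes were named after their values were seen, and no explanation was tested.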
